A study of Mus musculus with 7 samples.

Results

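The genes described here were 48 mouse genes of fatty acid oxidation and its handling that are known targets of the nuclear receptor PPARA or act in the same pathway. They were listed by name in 7 role groups, with earlier results of these data known, and all 48 were found among the 55487 genes of the count table. PPARA is a ligand-activated transcription factor of the liver that pairs with RXRA, is switched on by fatty acids and fibrate drugs, and drives the genes with which hepatocytes burn fat during fasting. Fatty acids are bound and activated to acyl-CoA, carried into mitochondria as carnitine esters by CPT1A and CPT2 and shortened there by beta-oxidation, while very long and branched chains are first shortened in peroxisomes. Valproate is itself a branched-chain fatty acid, used as an anti-epileptic drug and an inhibitor of class I histone deacetylases.

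Precision-cut liver slices (PCLS), thin discs of living liver that keep the tissue's cells in place, were made from healthy male Balb/c mice. The slices were cultured in Williams' medium E without valproate (CTR, 3 libraries) or with the sodium salt of valproic acid at 2.5 mM (VPA, 4 libraries) and collected on day 3. RNA was read by 3′ end sequencing of whole slices, so that each count stands for a transcript end and levels are not divided by gene length. The comparison asked which of these genes differed in VPA-supplemented slices.

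The libraries held 1400887 to 4773750 counts on genes, and mitochondrially encoded genes took 14.5 to 27.7% of them in CTR and 23.9 to 32.5% in VPA. Genes with a count numbered 17744 to 19756 in CTR libraries and 14359 to 16761 in VPA libraries, without overlap. Of the 20 hepatocyte markers, 11 had a count in every library, Ass1 was listed at 0 in all, and their summed level was 8872 to 22324 counts per 1000000 (CPM) in CTR and 6008 to 19060 CPM in VPA. The summed level of 12 markers of activated stellate cells, the collagen-producing cells of liver scars, was 3592 to 5945 CPM in CTR and 1888 to 2710 CPM in VPA, and 6 of the 12 (Col1a1, Col1a2, Col3a1, Sparc, Vim and Tnc) were lower with VPA without overlap while the others overlapped. The sum of 6 proliferation markers was 77.8 to 88.1 CPM against 14.3 to 53.5 CPM, with 3 of them (Mki67, Top2a and Ccnb1) lower without overlap. Endothelial (8 markers, 261 to 346 against 115 to 277 CPM), macrophage (8 markers, 300.4 to 396 against 283 to 539.98 CPM; Adgre1 and Marco at 0) and cholangiocyte markers (6 markers, 272 to 614 against 258 to 741 CPM) overlapped between the groups in their sums, though the endothelial markers Cdh5 and Tek were lower and the hepatocyte marker Cyp3a11 was higher with VPA without overlap, and all 4 adipocyte markers were at 0 in every library. The part of these shifts in the values below was not tested, and in whole slices fewer cells of a type and less RNA per cell cannot be told apart. The table also lists some well-expressed genes at exactly 0 in single libraries. Among genes for which depth alone would give at least 30 counts, 103 to 115 were at 0 in each CTR library and 166 to 392 in each VPA library, while only 6 to 21 had 1 to 3 counts. A gene at 0 is therefore called "listed at 0" here. By counting error alone, 0 counts allows up to 3 counts, or 0.591 to 2.41 CPM depending on the library.

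None of the 48 genes passed an adjusted p of 0.05, and the 5 with the lowest p-values were all higher with VPA: Cpt1a, the gate of mitochondrial fatty acid entry, the acyl-CoA thioesterases Acot2 and Acot4, the peroxisome division gene Pex11a and the pyruvate dehydrogenase kinase Pdk4. Of the 48 genes, 39 had enough counts to be tested with edgeR's quasi-likelihood test, with Benjamini-Hochberg adjustment over all 10876 genes tested. The count of 0 members past the adjusted threshold stands against 1 gene in the whole table (0.00919%). By DESeq2, 1 member, Acot4, passed (adjusted p = 0.0337), where 0.256% of the genes with an adjusted p were called higher and 0.754% were called lower. With no adjustment, at p under 0.05, 5 of 39 members (12.8%) were higher with VPA and 0 were lower, against 3.65% and 4.62% of all genes tested. In 4 of 39 members (10.3%) every VPA library was above every CTR library, against 4.44% of all genes, and in 0 was every VPA library below, against 7.41%. Both counts of higher members include Acot4, which had enough counts to be tested only through the VPA libraries. It reached the level required in 0 CTR and 4 VPA libraries. With the replicate number or the slice culture number of the labels as a block, Acot2 and Pex11a had no unadjusted p under 0.05. Without CTR replicate 1, only Acot4 and Cpt1a kept an unadjusted p under 0.05 (1.83% of all genes higher in that fit), while without VPA replicate 4 the count was 8 (4.06%), without Pdk4. The members above without overlap numbered 10 without CTR replicate 3 (5.47% of all genes) and 8 without VPA replicate 4 (7.83%). VPA replicate 4 had the lowest summed hepatocyte marker level and CTR replicate 3 the highest, and whether this bears on the counts was not tested.

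**Figure D1:**
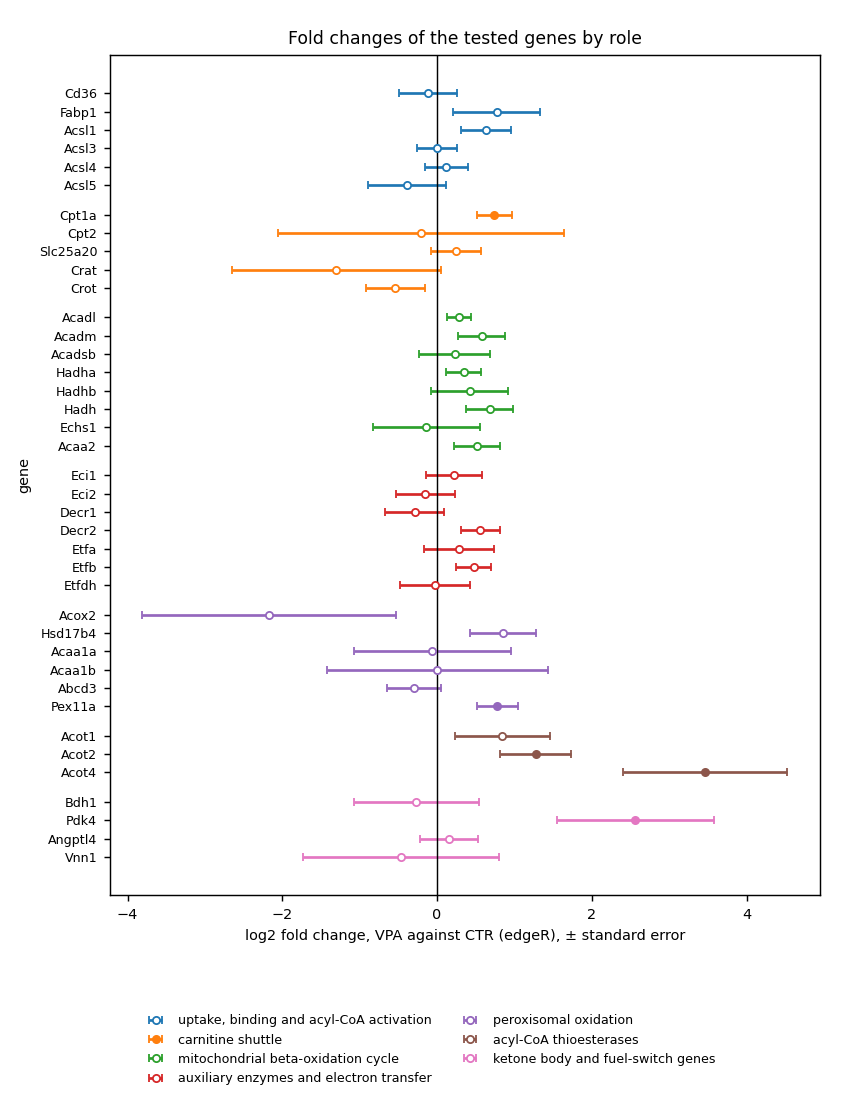
Fitted log2 fold change (VPA minus CTR) of the 39 tested genes, grouped by role, with bars of 1 standard error. Filled points mark the 5 genes with an unadjusted p under 0.05, which lie between 0.74 and 3.46, and the lowest point is Acox2 at −2.17.

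The median log2 fold change of the 39 tested members was 0.23, with 24 (61.5%) above 0 and 15 below, while the median over all tested genes was −0.06 with 45.8% above 0. The fold changes ran from −2.17 for Acox2 to 3.46 for Acot4. The mean log2 CPM over all 48 members, a wider set than the 39 of the median, was 4.19 ± 0.115 (SD, n = 3) in CTR and 4.16 ± 0.192 (SD, n = 4) in VPA. VPA minus CTR was thus below 0 for this mean, within the spread between libraries. Over the 39 tested members the mean log2 CPM was 4.94 ± 0.286 in CTR and 5.04 ± 0.288 in VPA, a difference above 0, like the median, and also within that spread. In 20 pairs of member and library a member was at 0 where depth alone would give at least 10 counts, and 14 of these pairs were in VPA libraries. Of the 48 members, 31 had a count in every library, 15 were at 0 in 1 to 6 libraries and 2 were at 0 in all. Acot4 passed the filter on low counts only through the VPA libraries, and Acox2 through all 3 CTR libraries and 1 VPA library, so each passed through the group where it is high, and the counts, medians and range above include both.

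**Figure D2:**
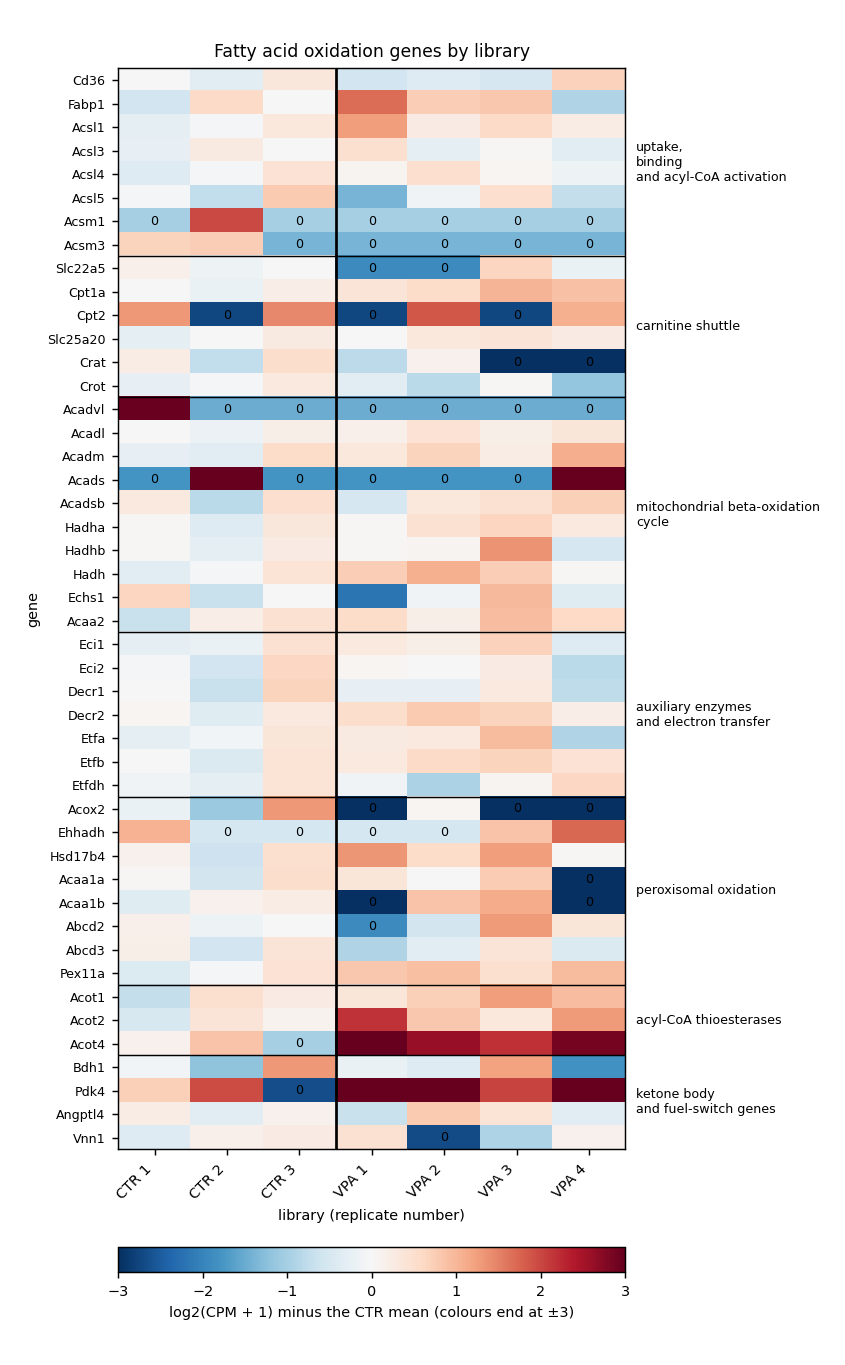
Colours give log2(CPM + 1) of each gene minus its CTR mean in the 3 CTR and 4 VPA libraries, by role group, without the 2 genes at 0 in every library; a printed 0 marks a gene listed at 0 in that library. Cpt1a, Pex11a, Acot4 and Pdk4 are above all CTR libraries in each VPA library, while most rows mix high and low libraries in both groups.

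The promoters of Cpt1a, Pex11a, Acot2, Acot4 and Pdk4, with that of the fatty acid binding protein gene Fabp1, are printed because PPARA with RXRA binds a direct repeat of AGGTCA spaced by 1 base. The sequences are the 250 bases before each annotated start in RefSeq (GRCm38.p6), read 5′ to 3′ on the gene's strand, and RefSeq starts can differ from the gene bounds given below. Capitals mark each AGGTCA, or its reverse complement TGACCT, and each stretch that matches AGGTCANAGGTCA on either strand with up to 2 of its 12 fixed letters changed.
Cpt1a, chr19:3323051-3323300, plus strand: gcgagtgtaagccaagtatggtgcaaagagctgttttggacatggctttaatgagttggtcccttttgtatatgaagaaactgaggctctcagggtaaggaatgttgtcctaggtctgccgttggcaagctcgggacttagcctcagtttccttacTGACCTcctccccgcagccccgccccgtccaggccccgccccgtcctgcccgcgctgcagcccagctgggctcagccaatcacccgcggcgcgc
Pex11a, chr7:79743132-79743381, minus strand: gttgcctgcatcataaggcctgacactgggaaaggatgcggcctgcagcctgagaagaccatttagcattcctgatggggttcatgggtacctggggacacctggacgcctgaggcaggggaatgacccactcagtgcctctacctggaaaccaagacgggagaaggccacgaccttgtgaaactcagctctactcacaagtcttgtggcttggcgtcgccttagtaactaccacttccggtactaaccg
Acot2, chr12:83987611-83987860, plus strand: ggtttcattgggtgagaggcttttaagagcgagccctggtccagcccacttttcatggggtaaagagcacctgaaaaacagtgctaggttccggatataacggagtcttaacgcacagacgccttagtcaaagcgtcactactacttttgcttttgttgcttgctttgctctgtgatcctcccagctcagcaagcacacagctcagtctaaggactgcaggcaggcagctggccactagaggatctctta
Acot4, chr12:84038129-84038378, plus strand: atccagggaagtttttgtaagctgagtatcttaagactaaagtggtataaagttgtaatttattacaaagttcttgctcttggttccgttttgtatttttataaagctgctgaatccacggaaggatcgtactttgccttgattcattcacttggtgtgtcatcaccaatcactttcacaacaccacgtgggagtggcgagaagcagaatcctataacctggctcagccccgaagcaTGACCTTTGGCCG
Pdk4, chr6:5496279-5496528, minus strand: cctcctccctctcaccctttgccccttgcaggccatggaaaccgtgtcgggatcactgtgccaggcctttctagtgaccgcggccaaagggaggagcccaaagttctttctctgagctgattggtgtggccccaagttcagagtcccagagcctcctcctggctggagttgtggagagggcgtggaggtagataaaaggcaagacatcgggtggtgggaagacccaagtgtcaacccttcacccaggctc
Fabp1, chr6:71199629-71199878, plus strand: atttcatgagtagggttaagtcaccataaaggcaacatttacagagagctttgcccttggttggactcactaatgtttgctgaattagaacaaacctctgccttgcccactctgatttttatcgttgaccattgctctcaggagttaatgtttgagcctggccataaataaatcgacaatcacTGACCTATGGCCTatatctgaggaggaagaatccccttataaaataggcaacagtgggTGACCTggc
The repeat was found in Acot4, starting at position −13 from the annotated start with 2 mismatches, and in Fabp1, at −67 with 1 mismatch. The Cpt1a promoter held AGGTCA alone, at −94, and the windows of Pex11a, Acot2 and Pdk4 held neither. Of 48 members, 41 had promoters in the reference (46 promoters). The repeat was in 5 of these (10.9%; also in Cd36, Echs1 and Etfa), against 1063 of 32851 promoters (3.24%), and AGGTCA was in 8 of 46 (17.4%) against 14.02%. The 2 motifs overlap, some members have several promoters, and a match in a window is a description of its letters, not a measured binding site.

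Among the 8 genes of fatty acid uptake, binding and activation, 6 were tested, with 3 above and 3 below 0 and a median log2 fold change of 0.06. Acsl5, an acyl-CoA synthetase, had the highest mean level of the group. It stood at 100.5, 62.5 and 179.8 CPM in CTR and at 39.2, 97.5, 148.5 and 62.7 CPM in VPA, so the groups overlapped widely (log2 fold change −0.39, SE 0.50, edgeR adjusted p = 0.94). Without CTR replicate 3, its highest library, the log2 fold change was 0.072. Acsl5 (chromosome 19, 55251938 to 55297720, plus strand) shares exon sequence with Zdhhc6 on the other strand, and whether the counting used strand was not stated. Fabp1, the cytosolic fatty acid carrier of the hepatocyte, was at 26.0, 58.3 and 39.5 CPM in CTR and at 126.7, 66.4, 69.8 and 20.4 CPM in VPA. Its log2 fold change of 0.77 (SE 0.56, edgeR adjusted p = 0.85) rested on VPA replicates 1 to 3, since VPA replicate 4 lay below every CTR library. The synthetases Acsl1 (26.4 to 79.0 CPM, log2 fold change 0.63), Acsl3 (49.1 to 85.5 CPM, 0.00) and Acsl4 (33.5 to 64.0 CPM, 0.12), like the membrane fatty acid receptor gene Cd36 (34.0 to 83.8 CPM, −0.12), did not pass. The medium-chain synthetases were too sparse to test, with Acsm1 counted only in CTR replicate 2 (35 counts) and Acsm3 only in CTR replicates 1 and 2 (8 and 17 counts).

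Of the 6 carnitine shuttle genes, 5 were tested, 2 with fold changes above 0 and 3 below, at a median of −0.21 on the log2 scale, and Cpt1a was the 1 whose groups did not overlap. Cpt1a (ENSMUSG00000024900, chromosome 19, 3322334 to 3385733, plus strand) encodes the rate-limiting enzyme that makes acyl-carnitines at the outer mitochondrial membrane. It was at 41.8, 35.9 and 47.7 CPM in CTR and at 54.8, 60.9, 85.1 and 77.8 CPM in VPA. The lowest VPA library was above the highest CTR library. The means were 41.8 ± 5.91 CPM (SD, n = 3) and 69.7 ± 14.2 CPM (SD, n = 4), a 1.67-fold difference (log2 fold change 0.74, SE 0.23, edgeR adjusted p = 0.45). Leaving out single libraries gave log2 fold changes of 0.62 to 0.84, and Cpt1a kept an unadjusted p under 0.05 in every alternative run. Its partner at the inner membrane, Cpt2, was listed at 0 in CTR replicate 2 and in VPA replicates 1 and 3 and was at 12.8 to 23.4 CPM elsewhere, so that its fold change of −0.21 on the log2 scale had an SE of 1.85. The carnitine-acylcarnitine carrier Slc25a20 was at 14.6 to 23.3 CPM (0.24). The acyltransferases Crat (0 to 17.5 CPM, −1.30) and Crot (12.1 to 35.1 CPM, −0.54), which hand short and medium chains to carnitine, had fold changes below 0 and did not pass. The carnitine importer Slc22a5 had at most 12 counts in a library and was not tested, and 74.1% of the 50-base stretches at its transcript ends also occur in another gene, Slc22a21.

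The mitochondrial beta-oxidation cycle held 10 genes, of which 8 were tested, 7 with fold changes above 0 and 1 below, and the median log2 fold change was 0.38. None had an unadjusted p under 0.05. Hadha, the alpha subunit of the trifunctional protein that carries out the last steps on long chains, had the highest mean level (chromosome 5, 30118304 to 30155162, minus strand). It was at 119.8, 87.9 and 148.0 CPM in CTR and at 119.5, 158.3, 182.2 and 142.0 CPM in VPA (log2 fold change 0.35, SE 0.23, edgeR adjusted p = 0.79). The groups overlapped, with VPA replicate 1 level with CTR replicate 1. Its beta subunit gene Hadhb was lower in level, at 13.6 to 51.4 CPM (0.42), and 35.4% of its transcript-end stretches are shared with other genes. The acyl-CoA dehydrogenases, which take the first step, were Acadl for long chains (106.0 to 162.3 CPM, log2 fold change 0.28), Acadm for medium chains (53.6 to 142.7 CPM, 0.57) and Acadsb for short branched chains (10.8 to 33.2 CPM, 0.23). For Hadh, the short-chain hydroxyacyl-CoA dehydrogenase, CTR libraries were at 28.8, 35.5 and 49.3 CPM and VPA libraries at 62.7, 78.7, 61.8 and 37.8 CPM. VPA replicate 4 alone kept the Hadh groups from separating (log2 fold change 0.68, SE 0.31, edgeR adjusted p = 0.63). Acaa2, the thiolase that closes the cycle, was at 45.3 to 138.1 CPM (0.51), and the hydratase gene Echs1 at 5.88 to 61.0 CPM (−0.14). The very-long-chain and short-chain dehydrogenase genes gave no comparison, because Acadvl had 53 counts in CTR replicate 1 and was listed at 0 elsewhere, and Acads had 207 counts in CTR replicate 2, 107 in VPA replicate 4 and 0 in the other 5 libraries, where depth alone would give 26.3 to 58.2 counts.

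All 7 auxiliary and electron transfer genes were tested, 4 with fold changes above 0 and 3 below, at a median of 0.21 on the log2 scale. Etfb, the beta subunit of the flavoprotein that takes electrons from the acyl-CoA dehydrogenases, had the highest mean level (chromosome 7, 43444083 to 43457800, plus strand). It was at 91.8, 67.0 and 120.6 CPM in CTR and at 111.0, 135.3, 145.3 and 123.1 CPM in VPA. Only VPA replicate 1 fell inside the CTR range (log2 fold change 0.47, SE 0.22, edgeR adjusted p = 0.65). Of the stretches at its transcript ends, 58.1% also occur in Gm45233, an overlapping gene on the same strand that held 7 counts in all. The alpha subunit gene Etfa (12.1 to 46.6 CPM, 0.28) and Etfdh, which passes the electrons to ubiquinone (10.2 to 31.7 CPM, −0.02), differed by less than their errors. Unsaturated chains need isomerases and reductases, of which the isomerase genes Eci1 (18.1 to 39.3 CPM, 0.21) and Eci2 (18.9 to 52.1 CPM, −0.15) and the mitochondrial reductase gene Decr1 (27.9 to 77.3 CPM, −0.29) showed no separation. The peroxisomal reductase gene Decr2 was at 36.6, 27.0 and 42.8 CPM in CTR and at 50.9, 61.2, 56.2 and 40.0 CPM in VPA, with VPA replicate 4 below the highest CTR library (log2 fold change 0.56, SE 0.25, edgeR adjusted p = 0.63). Eci2, Eci1 and Etfa had the profiles most like the mean of the other members (Pearson r = 0.83, 0.82 and 0.77 over the 7 libraries), a description over libraries that also share depth and cell content.

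In peroxisomes, 6 of 8 genes were tested, 3 with fold changes above 0 and 3 below, at a median of −0.03 on the log2 scale. Pex11a, which elongates peroxisomes before they divide and is a classical fibrate-responsive gene, was the member of this group that separated (ENSMUSG00000030545, chromosome 7, 79735957 to 79743131, minus strand). It was at 24.4, 32.3 and 44.95 CPM in CTR and at 58.8, 62.1, 46.6 and 64.2 CPM in VPA. All VPA libraries were above all CTR libraries, though VPA replicate 3 and CTR replicate 3 nearly met. The means were 33.9 ± 10.4 CPM (SD, n = 3) and 57.9 ± 7.89 CPM (SD, n = 4), a 1.71-fold difference (log2 fold change 0.78, SE 0.26, edgeR adjusted p = 0.50). Abcd3, a peroxisomal membrane transporter of acyl-CoA with the highest mean level of the group (chromosome 3, 121758774 to 121815302, minus strand), was at 98.1, 58.5 and 114.6 CPM in CTR and at 46.4, 69.5, 113.2 and 64.2 CPM in VPA (log2 fold change −0.30, SE 0.35, edgeR adjusted p = 0.93). Hsd17b4, the bifunctional enzyme gene, was at 14.6 to 58.8 CPM (0.85). The thiolase genes Acaa1a (0 to 56.2 CPM, −0.06) and Acaa1b (0 to 50.6 CPM, 0.00) were listed at 0 in VPA replicate 4, and Acaa1b also in VPA replicate 1. These 2 genes share 31.6% and 38.8% of their transcript-end stretches, chiefly with each other, so the split of counts between them is uncertain. Acox2, the branched-chain acyl-CoA oxidase, was at 13.8, 6.90 and 41.1 CPM in CTR, at 16.6 CPM in VPA replicate 2 and at 0 in the other VPA libraries (log2 fold change −2.17, SE 1.64, edgeR adjusted p = 0.85). Ehhadh, with at most 5 counts in a library, and Abcd2, with at most 12, were not tested.

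The acyl-CoA thioesterases, which release free fatty acid and CoA from acyl-CoA, were the role group with the largest median log2 fold change, 1.27 over the 3 tested of 5. Acot1, Acot2, Acot3 and Acot4 lie beside each other on the plus strand of chromosome 12, from 83987861 to 84060402. This median includes Acot4, which passed the filter only through the VPA libraries, and over Acot1 and Acot2 alone it was 1.06. Acot2, the mitochondrial enzyme (ENSMUSG00000021226, 83987861 to 83993873), had the highest mean level of all 48 members. It was at 112.3, 202.6 and 166.7 CPM in CTR and at 709.7, 271.8, 193.5 and 377.6 CPM in VPA. VPA replicate 3 lay inside the CTR range and VPA replicate 1 far above the other libraries. The means were 161 ± 45.5 CPM (SD, n = 3) and 388 ± 227 CPM (SD, n = 4), a 2.41-fold difference (log2 fold change 1.27, SE 0.46, edgeR adjusted p = 0.54), and without VPA replicate 1 the log2 fold change was 0.81. Acot4, the peroxisomal enzyme of dicarboxylic and succinyl-CoA (ENSMUSG00000052392, 84038379 to 84048601), had 3, 13 and 0 counts in CTR and 44, 36, 10 and 18 counts in VPA. These were 1.18, 2.56 and 0 CPM in CTR and 28.7, 11.1, 8.03 and 13.6 CPM in VPA, with no overlap. The log2 fold change was 3.46 (SE 1.06, edgeR adjusted p = 0.45), and 2.95 to 4.46 when single libraries were left out. Its exons overlap 4732463B04Rik on the other strand, which held 52 counts in all against 124 for Acot4 and whose counts did not follow the groups (3, 25 and 0 in CTR, 8, 0, 13 and 3 in VPA). The cytosolic enzyme gene Acot1 was at 3.15, 8.48 and 7.13 CPM in CTR and at 7.83, 10.2, 15.3 and 12.1 CPM in VPA (log2 fold change 0.85, SE 0.61, edgeR adjusted p = 0.84). The peroxisomal genes Acot3 and Acot8 were listed at 0 in every library. Of the transcript-end stretches of Acot1, Acot2 and Acot4, 7.21%, 0.443% and 5.21% occur in other genes.

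**Figure D3:**
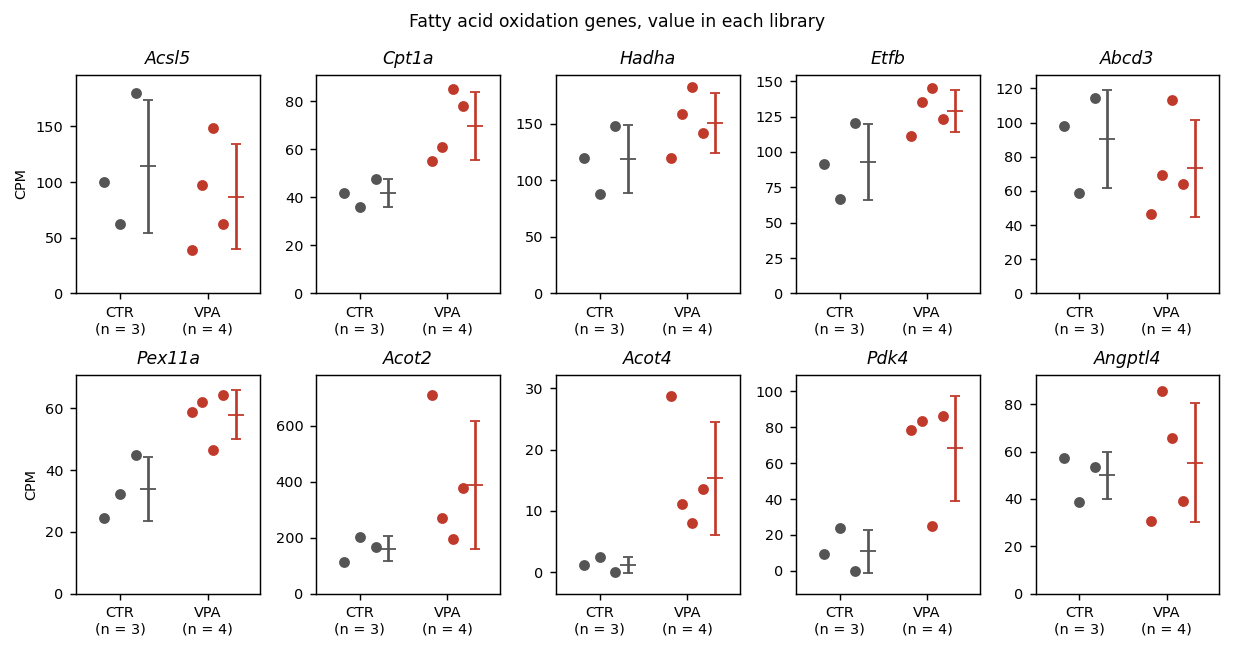
CPM of 10 members, those with an unadjusted p under 0.05 or the highest mean level of their role group, 3 CTR and 4 VPA points each, with the group mean and its SD beside the points. The VPA points of Cpt1a, Pex11a, Acot4 and Pdk4 lie above all CTR points, Acot2 has a single VPA point at 709.7 CPM, and the other genes overlap.

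The 4 ketone body and fuel-switch genes were all tested, 2 with fold changes above 0 and 2 below, at a median of −0.05 on the log2 scale. Pdk4, the kinase that turns off pyruvate dehydrogenase when fat is burned (ENSMUSG00000019577, chromosome 6, 5483351 to 5496309, minus strand), had 24, 120 and 0 counts in CTR and 120, 272, 31 and 114 counts in VPA. These were 9.46, 23.7 and 0 CPM in CTR and 78.3, 83.6, 24.9 and 86.1 CPM in VPA. The groups did not overlap, but VPA replicate 3 and CTR replicate 2 nearly met. The means were 11.0 ± 11.9 CPM (SD, n = 3) and 68.2 ± 29.1 CPM (SD, n = 4), with a log2 fold change of 2.56 (SE 1.01, edgeR adjusted p = 0.57). In CTR replicate 3 depth alone would give 70.97 counts, and without that library, listed at 0, the log2 fold change was 2.01. Angptl4, a secreted inhibitor of lipoprotein lipase with the highest mean level of the group (chromosome 17, 33773750 to 33781830, minus strand), was at 57.5, 38.6 and 53.7 CPM in CTR and at 30.7, 85.8, 65.8 and 39.3 CPM in VPA. VPA libraries lay on both sides of the CTR range (log2 fold change 0.16, SE 0.38, edgeR adjusted p = 0.97). Bdh1, which makes 3-hydroxybutyrate from acetoacetate, spread from 7.55 to 72.9 CPM (−0.27). The pantetheinase gene Vnn1 was at 0 to 7.83 CPM (−0.46), listed at 0 in VPA replicate 2, where depth alone would give 14.1 counts.

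The wider PPARA pathway was described by 70 related genes in 5 lists, of which 49 were tested. Of these, 6 had an unadjusted p under 0.05 and were higher with VPA (12.2%, against 3.65% of all genes). At the same p, 1 was lower (against 4.62% of all genes), and 1 passed the adjusted threshold (against 0.00919%). Ppargc1a, counted in the 6 and in the median below, passed the filter on low counts through the VPA libraries. The median log2 fold change was 0.15, with 31 above 0 and 18 below, and it was −0.11 with limma-voom. Values for Ppara itself were low, at 9.46, 4.14 and 7.68 CPM in CTR and at 15.7, 0, 12.8 and 9.82 CPM in VPA (log2 fold change 0.42, SE 1.25, edgeR adjusted p = 0.97). Expression of several of its most responsive targets, the fatty acid omega-hydroxylase genes Cyp4a10, Cyp4a14, Cyp4a31 and Cyp4a32 and the hormone gene Fgf21, was listed at 0 in every library.

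The 11 regulators held 4 of the 6 related genes that were higher at an unadjusted p under 0.05 and the 1 that was lower, and the 10 tested had a median log2 fold change of 0.58. The count of 4 and this median include Ppargc1a, which passed the filter through the VPA libraries, and neither was taken without it. Creb3l3, a liver transcription factor of the endoplasmic reticulum that acts with PPARA on fasting genes, rose in VPA. It was at 117.8, 78.8 and 115.1 CPM in CTR and at 689.5, 519.9, 668.0 and 602.7 CPM in VPA, with no library of one group near the other (log2 fold change 2.58, SE 0.20, edgeR adjusted p = 0.0247). When any library other than VPA replicate 2 was left out, that is CTR replicate 1, 2 or 3 or VPA replicate 1, 3 or 4, the adjusted p was above 0.05 and the call was lost (0.0407 to 0.24 over the 7 fits) while the log2 fold change stayed at 2.40 to 2.67. With the slice culture number as a block the edgeR adjusted p was 0.31. By DESeq2 on all 7 libraries without a block, the adjusted p was 6.39e-28 (log2 fold change 2.57). Ppargc1a, a coactivator of PPARA and of mitochondrial genes, was at 4.33, 3.35 and 10.4 CPM in CTR and at 17.0, 18.8, 22.5 and 23.4 CPM in VPA, again without overlap, though only 1 CTR library reached the filter's 5.74 CPM, so that it passed through the VPA libraries (log2 fold change 1.77, SE 0.55, edgeR adjusted p = 0.45). For Lpin1, a phosphatidate phosphatase that also assists PPARA, CTR libraries were at 25.6, 21.7 and 33.4 CPM and VPA libraries at 69.9, 63.3, 36.1 and 42.3 CPM (0.98, SE 0.31, adjusted p = 0.47). The coactivator gene Ncoa1 was at 15.0, 17.3 and 15.9 CPM in CTR and at 49.0, 40.0, 40.9 and 14.3 CPM in VPA, with VPA replicate 4 below the CTR range (1.16, SE 0.43, adjusted p = 0.55).

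Lower values were seen for Ncor1, a corepressor that brings histone deacetylase 3 to nuclear receptors, which was at 461, 451 and 465 CPM in CTR and at 319, 285, 323 and 367 CPM in VPA. The CTR libraries lay close together and above every VPA library (log2 fold change −0.51, SE 0.13, edgeR adjusted p = 0.34; DESeq2 adjusted p = 0.0475). Rxra, the binding partner of PPARA, was at 62.3, 65.0 and 71.3 CPM in CTR and at 49.0, 49.5, 57.8 and 61.2 CPM in VPA (−0.29, SE 0.17, edgeR adjusted p = 0.76). The groups did not overlap, but the gap was small against the spread. The peroxisomal CoA diphosphatase gene Nudt7 was at 15.8, 24.0 and 8.77 CPM in CTR and at 87.5, 108.8, 55.4 and 23.4 CPM in VPA, with VPA replicate 4 inside the CTR range (2.07, SE 0.58, edgeR adjusted p = 0.39). For Mlycd, which removes the malonyl-CoA that blocks CPT1A, CTR libraries were at 15.4, 15.0 and 8.77 CPM and VPA libraries at 32.6, 36.3, 12.8 and 31.7 CPM, with VPA replicate 3 inside the CTR range (1.12, SE 0.45, edgeR adjusted p = 0.58). Bdh2, a cytosolic hydroxybutyrate dehydrogenase, was at 3.55, 9.66 and 12.1 CPM in CTR and at 12.4, 16.0, 17.7 and 21.1 CPM in VPA, without overlap but with neighbouring values (0.99, SE 0.55, edgeR adjusted p = 0.72).

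**Figure D4:**
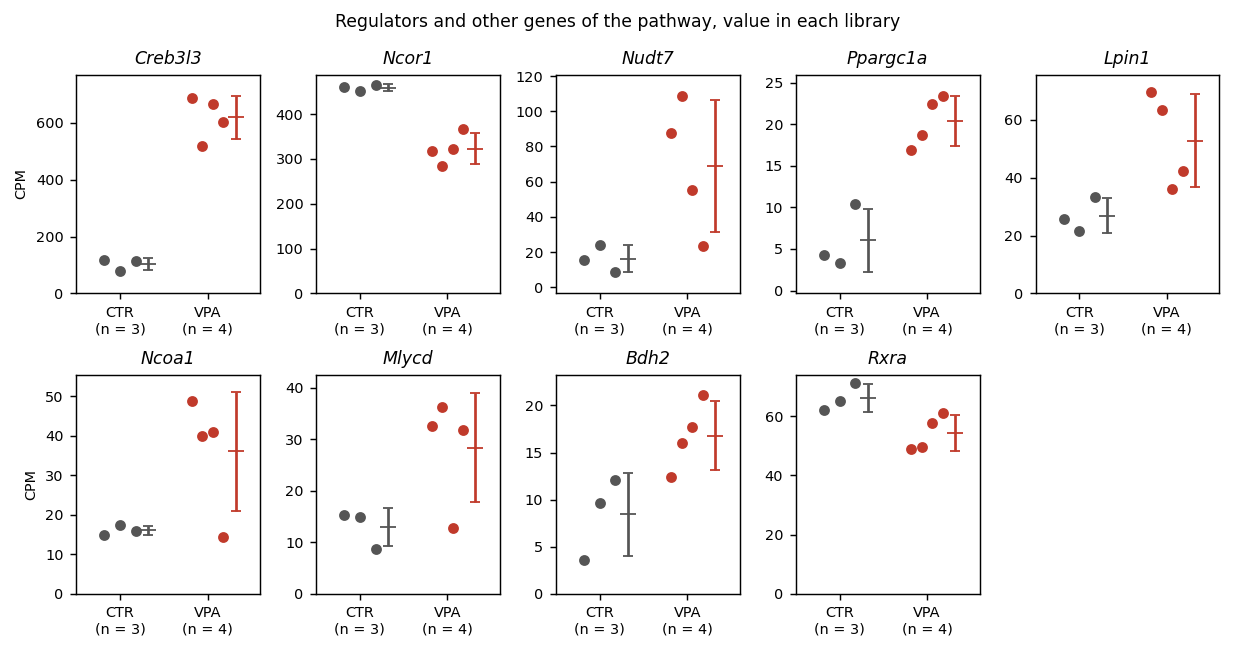
CPM of the named related genes in 3 CTR and 4 VPA libraries, with the group mean and its SD beside the points. Creb3l3 lies at 78.8 to 117.8 CPM in CTR and at 519.9 to 689.5 CPM in VPA, the widest gap among these genes, while Ncor1 and Rxra lie lower in each VPA library than in any CTR library.

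Among the other related lists, peroxisomal and alpha-oxidation genes (18 of 22 tested) had a median log2 fold change of 0.14, mitochondrial and ketone body genes (12 of 18 tested) of 0.10, and genes of fatty acid uptake and lipid droplets (7 of 12 tested) of 0.03. Only 2 of 7 microsomal omega-oxidation genes could be tested, with a median of −0.34. Plin2, the lipid droplet coat gene, was the most highly counted of the 49, at 1650 to 2976 CPM, and did not differ beyond its spread (log2 fold change 0.15, SE 0.25, edgeR adjusted p = 0.95).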

How the data were processed

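RNA of 7 PCLS cultures (3 CTR, 4 VPA, grouped by the labels) was sequenced from the 3′ end. The authors mapped reads with STAR to GRCm38.p6 (mm10) and assembled genes with StringTie; the counting program, its use of strand and of reads with several matches are not given in the sources used here. The deposited table holds raw counts per gene (55487 genes, of which 26086 had a count), so the unit is the count. Totals were 1400887 to 4773750 per library, and their floors cover counting error only. The study's methods count each repeat as a different liver. Whether a CTR and a VPA library with the same slice culture number came from the same liver is not given in the sources used here.

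Counts were filtered with filterByExpr (about 5.74 CPM in at least 3 libraries), scaled by TMM and tested with edgeR 4.0.16 (robust quasi-likelihood, R 4.3.3). CPM are counts per 1000000 of the TMM-scaled library size, and log2 CPM uses a prior count of 2. Alternatives were DESeq2 1.42.0, limma 3.58.1 voom, other scalings and filters, replicate blocks and leaving out each library.

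Members and gene lists were chosen with earlier results of these data known. Every member was named. Members with an unadjusted p under 0.05, without overlap, or with the highest mean of their role group got a value per library (10 genes), as did up to 10 related genes by the first 2 criteria. Hadh, Decr2, Fabp1, Acot1 and Acox2 were added after their values were seen, as were Ppara and Plin2. Transcript ends were compared as 50-base stretches of the last 500 bases. Gene positions are GRCm38.p6.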

Additional observations from a re-analysis of the deposited data

Results flagged for a closer look

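Of 56 measures checked for a VPA library far from the other VPA libraries, 4 had one, and about 1 in 20 such checks does so by chance. The CTR group, with 3 libraries, was not checked. Cd36 was at 83.8 CPM in VPA replicate 4, against 34.0 to 38.7 CPM in the other VPA libraries. Pdk4 was at 24.9 CPM in VPA replicate 3, against 78.3 to 86.1 CPM. Acox2 was at 16.6 CPM in VPA replicate 2 and listed at 0 in the others. VPA replicate 2 also held 3102450 counts on genes, against 1400887 to 1515954, so its zeros allow the lowest levels of the group.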

How the results depend on the processing

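The members' median log2 fold change stayed above 0 under every alternative run (0.14 to 0.41 when single libraries were left out), and Cpt1a kept an unadjusted p under 0.05 in all of them. Counts of members moved more. The count past an adjusted p of 0.05 was 0, and 1 with DESeq2. The 5 members higher at an unadjusted p became 8 with limma-voom, which lacked Acot4 and Pdk4 (5.09% of all genes were higher and 10.004% lower in that fit). They became 2 to 8 when single libraries were left out (1.79 to 4.06% of all genes over these fits). The 0 lower became 2 of 46 with no filter (Acadvl and Acsm3, against 4.88% of all genes). When single libraries were left out, it became 0 to 1 (2.83 to 6.22% of all genes). The 1 was Acox2, which without VPA replicate 2 was at 0 in every VPA library and was tested only through its CTR libraries. The 4 members above without overlap became 2 with no filter (1.81% of all genes) and 2 of 29 with at least 10 counts required in every library. That filter was chosen after seeing the data and removes genes listed at 0, and under it 6.36% of all genes were above. When single libraries were left out, the 4 became 4 to 10 (against 5.47 to 8.44% of all genes). The 0 below became 0 to 2 in the same fits (against 9.58 to 14.2% of all genes), with 2 without VPA replicate 2 (10.4%). Among related genes, the 6 higher became 3 to 6 when single libraries were left out (1.79 to 4.06% of all genes over these fits). The lowest count, 3, came without CTR replicate 2 (3.30% of all genes). The 1 lower became 6 with no filter (4.88% of all genes), 3 with a mean of at least 10 counts (4.98%) and 3 with DESeq2 (2.69%). It became 1 to 3 when single libraries were left out (2.83 to 6.22% of all genes over these fits). The count was 3 without CTR replicate 1 (2.83%) or VPA replicate 2 (4.23%). The 1 past an adjusted p became 2 with DESeq2 and 0 to 1. Their median became −0.11 with limma-voom, which also moved the median of all genes to −0.14. Leaving out single libraries gave −0.77 to 0.072 for Acsl5 and −0.14 to 0.36 for Angptl4. The cause of these moves was not tested. The genes called in the whole table numbered 1 in edgeR, 10 with no filter, 36 with 10 counts in every library and 154 with DESeq2.

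CTR and VPA share replicate numbers 1, 2 and 3 and slice culture numbers 71, 72 and 74. The deviations of paired libraries correlated at −0.054 to 0.11 and 0.026 to 0.11, which did not show pairing and does not settle whether a slice culture number marks a shared liver. With the replicate number as a block, 5 members were higher (Acot4, Cpt1a, Hadh, Hsd17b4 and Pdk4) and 2 related genes lower at an unadjusted p (3.42% of all genes were higher and 5.63% lower), and with the slice culture number 4 members were higher (Acot4, Cpt1a, Etfb and Pdk4; 3.31% of all genes). Acot2 and Pex11a were among neither. Under either block 0 related genes passed the adjusted threshold (Creb3l3, adjusted p = 0.22 and 0.31).

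The shallower libraries limit genes such as Acot4, Acot1 and Vnn1, whose differences rest on at most 44 counts in a library.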
